A study of Mus musculus with 18 samples.

Results

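The serotonin and prolactin-response genes followed in mouse islets were Tph1, Tph2, Ddc, Fev, Htr2b, Htr1d, Prlr, Gbp8, Ivd and Wipi1. They were taken by gene symbol from the count tables, and all 10 were present among the 53801 mouse genes listed. The RNA-seq libraries were made from whole pancreatic islets, the cell clusters that secrete insulin, glucagon and somatostatin, of mice fed normal chow and aged 5 weeks. S64F/+ mice carried 1 copy of S64F in MafA, a beta cell transcription factor that binds the insulin genes, and WT mice were wild type at MafA. There were 4 male S64F/+, 4 male WT, 5 female S64F/+ and 5 female WT libraries, and the labels name no strain, no other allele and no number of animals behind a library. Because they do not say that replicates were separate animals, a p-value here covers the spread between libraries and no more, and that spread may be technical.

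Serotonin is made from tryptophan in 2 steps: a tryptophan hydroxylase, Tph1 or Tph2, carries out the rate-limiting step, and the decarboxylase Ddc the last. In mouse islets, prolactin and placental lactogens act in pregnancy through the prolactin receptor Prlr and the kinase Jak2 on STAT5 factors, and Tph1 is among the genes best known to rise then. Serotonin released by beta cells acts back on them through receptors that include Htr2b and Htr1d.

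Library totals ran from 19.3 to 108.7 M counts, with a median of 42.4. Levels of 1 gene are given as CPM (counts per 1 M of the library) after scaling by the trimmed mean of M values, and levels of different genes are compared only in the deposited FPKM (fragments per kilobase of gene and 1 M of library). The tissue label matched its markers: Ins1 lay between 29900 and 69000 FPKM in all libraries, Ins2 between 21600 and 42100, Gcg between 12300 and 29700, Sst between 3020 and 10300 and Ppy between 964 and 11300. Mafa itself averaged 197 ± 52.3 CPM in male S64F/+ and 905 ± 81.1 CPM in male WT islets, and 160 ± 49.7 CPM in female S64F/+ and 639 ± 117 CPM in female WT islets (SD, n = 4 and 5). It thus fell in both sexes (log2 fold change -2.2 ± 0.22 SE in males and -2 ± 0.2 in females, edgeR quasi-likelihood adjusted p = 1.77e-06 and 1.6e-06). A gene count sums both alleles of a heterozygote, so this does not check the genotype labels.

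A gene was called where its edgeR adjusted p was under 0.05. Of the 10 genes, 8 had enough counts to be tested, while Htr2b and Htr1d were removed by the filter on low counts. In males, 3 of the 8 were called, Tph1 higher and Ddc and Ivd lower, where 27.6% of the 18364 genes tested were called (15.4% higher and 12.3% lower). Scaling by plain library totals moved that split, so that 86.4% of called genes in males were higher, against 55.6% with the scaling used here. In females, 6 of the 8 were called, Tph1, Fev and Gbp8 higher and Ddc, Prlr and Wipi1 lower, where 21.2% of all genes were called (10.2% higher and 11% lower). Tph1 passed the filter through its S64F/+ libraries, so these counts describe the genes and support nothing. The difference between the sexes was called for 1 of the 8, Tph1, where 4.47% of all genes were called (2.87% with a larger value in males).

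**Figure D1:**
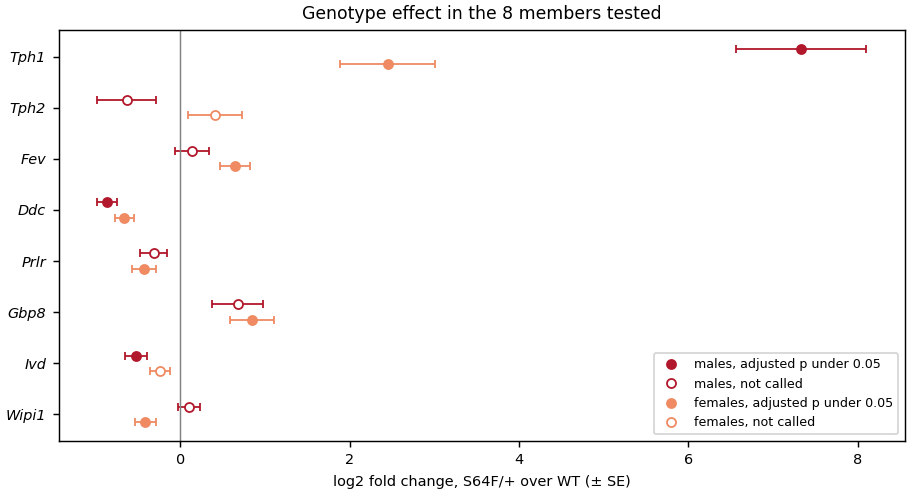
Genotype effects in the 8 genes tested, as log2 fold change of S64F/+ over WT (x axis, bars ± SE) for males and females, with filled points for an edgeR adjusted p under 0.05. Tph1 lies far to the right of the others, at 7.33 in males and 2.45 in females, and Ddc lies left of 0 in both sexes.

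Tph1, the tryptophan hydroxylase of peripheral tissues, was nearly undetected in male WT islets and rose in S64F/+ islets of both sexes. The gene lies at GRCm38 chr7:46644641-46672537 on the minus strand. Its RefSeq promoters are shown because it was the gene of the 10 that moved most and because the mutated protein is a transcription factor. RefSeq gives Tph1 a start at the gene's outer end and another inside it, and the 250 bases before each are printed 5′ to 3′ on the gene's strand (RefSeq, GRCm38.p6).

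Tph1 outer start, chr7:46672538-46672787, minus strand: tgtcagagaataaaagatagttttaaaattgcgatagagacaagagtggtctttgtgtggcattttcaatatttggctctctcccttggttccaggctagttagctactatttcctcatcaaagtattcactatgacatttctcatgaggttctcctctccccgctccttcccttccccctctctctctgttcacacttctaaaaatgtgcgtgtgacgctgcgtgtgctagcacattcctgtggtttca

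Tph1 inner start, chr7:46667378-46667627, minus strand: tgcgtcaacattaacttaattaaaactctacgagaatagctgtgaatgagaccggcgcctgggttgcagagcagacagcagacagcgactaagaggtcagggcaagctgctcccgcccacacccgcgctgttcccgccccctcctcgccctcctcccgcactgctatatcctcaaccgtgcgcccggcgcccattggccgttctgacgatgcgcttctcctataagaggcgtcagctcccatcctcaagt

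Nothing is in capitals in these stretches because neither motif searched was found. They were the MAF recognition core TGCTGAC, read on both strands, and the STAT5 motif TTCNNNGAA, which reads the same on both strands. Windows of 300 bases, from 250 before to 50 after a start, were available for 9 of the 10 genes, Gbp8 being the exception. The MAF core was in 0 of their 14 windows, and 4.67% of all 32851 RefSeq windows held it. The STAT5 motif was in 1 window each of Prlr, Ivd and Wipi1, and 8.3% of all windows held it. A match or its absence here describes letters in a window and nothing about binding.

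The 4 male S64F/+ libraries held 10.2, 8.61, 15 and 4.52 CPM of Tph1, against 0, 0.168, 0 and 0 CPM in the male WT libraries. Every male S64F/+ library thus stood above every male WT library, a separation in either direction found in 35.1% of all genes tested (17.8% higher, 17.3% lower), and 7 reads of 1 library made up all the Tph1 signal of male WT islets. The group means were 9.58 ± 4.32 and 0.042 ± 0.0841 CPM (SD, n = 4 each), a ratio of 228, and the fitted log2 fold change was 7.33 ± 0.77 SE (edgeR adjusted p = 3.13e-06). Male WT replicate 2 sets the size of that fold. Without it the other 3 male WT libraries hold 0 counts. Against the 3 counts that such a 0 allows over them (0.0403 CPM), the male S64F/+ mean was 238-fold higher. Those 3 libraries were kept because they hold 0 counts, so 238 is not a lower limit for the whole group, whose ratio was 228.

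Female S64F/+ libraries held 0.925, 1.19, 0.664, 0.538 and 1.21 CPM of Tph1, against 0.144, 0.0147, 0.287, 0.237 and 0.212 CPM in female WT libraries. Here too the groups did not overlap, as in 11.6% of all genes tested (5.28% higher, 6.37% lower). Every male S64F/+ library stood above every female S64F/+ library, a separation between these 2 groups seen in 16.2% of all genes (7.88% higher and 8.29% lower in males). The means were 0.905 ± 0.303 and 0.179 ± 0.105 CPM (SD, n = 5 each), a ratio of 5.06, with a log2 fold change of 2.45 ± 0.56 SE (edgeR adjusted p = 0.00501). The male effect exceeded the female effect by 4.88 ± 0.97 SE on the log2 scale (edgeR adjusted p = 0.015), and this fitted difference moved to 9.28 without male WT replicate 2, where it depends on how 0 counts are handled. Set directly against each other, male S64F/+ islets held 10.6 times the mean Tph1 CPM of female S64F/+ islets (log2 fold change 3.4 ± 0.52 SE, edgeR adjusted p = 0.000716). In whole islets, more cells that express a gene and more RNA of it per cell cannot be told apart, nor can fewer cells and less RNA per cell.

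**Figure D2:**
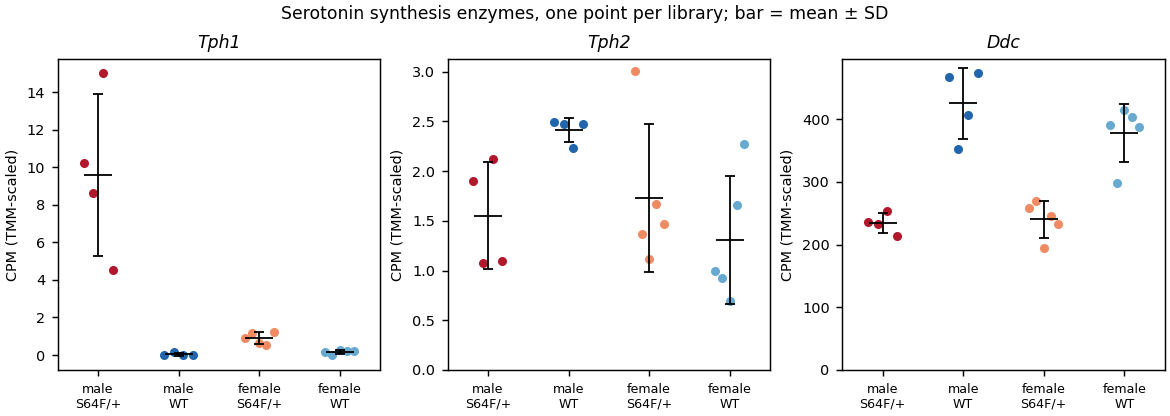
Tph1, Tph2 and Ddc in each library (y axis, TMM-scaled CPM), by group, with the mean and SD as bars. Male S64F/+ libraries carry 4.52 to 15 CPM of Tph1 and no other group exceeds 1.21, while Ddc is lower in S64F/+ than in WT islets of both sexes.

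Mast cells and enterochromaffin cells also express Tph1. Of 11 mast cell markers, Tpsab1 and Fcer1a were at 0 in all 18 libraries. The summed CPM of the 11 ran from 22.6 to 26.6 in male S64F/+, 13.4 to 18.5 in male WT, 22.8 to 37.1 in female S64F/+ and 18.2 to 25.6 in female WT libraries. The 5 markers most restricted to mast cells (Cpa3, Cma1, Mcpt4, Tpsb2 and Ms4a2) summed to 0.057, 0.463, 1.01 and 0 CPM in male S64F/+ libraries 1 to 4 and to 0.0553, 0.12, 0 and 0 CPM in male WT libraries. The same sum was 0.667, 0.132, 0.125, 0.0192 and 0.0183 CPM in female S64F/+ libraries and 0, 0.059, 0, 0 and 0.26 CPM in female WT libraries. These sums were low in all groups, and among male S64F/+ libraries they were highest in the library with the most Tph1, at 15 CPM, and 0 in the one with the least, at 4.52 CPM. Cma1, Mcpt4 and Tpsb2 gave 20, 10 and 8 counts over the male S64F/+ libraries and 0 over the male WT libraries. In females they gave 9, 5 and 9 counts in S64F/+ and 3, 0 and 0 counts in WT libraries. Of the 4 mast markers tested, 3 were called higher in males, Kit, Il1rl1 and Gata2, where 15.4% of all genes were, and 0 in females. Il1rl1 reached the filter's level in 4 male S64F/+, 1 male WT, 3 female S64F/+ and 0 female WT libraries. It was thus tested because it was high in S64F/+ islets, and its values are a description. Of the 6 enterochromaffin markers none was at 0 in a whole group. Only 3 of the 6 were tested: Trpa1 was called higher in both sexes, and Tac1 and Slc18a1 were called in neither. Slc18a1 went the other way (-0.53 ± 0.2 SE in males and -0.42 ± 0.18 in females, edgeR adjusted p = 0.0558 and 0.0998). The sum of the 6 ran from 25.3 to 48.9 CPM in male S64F/+ against 13.8 to 26.3 CPM in male WT libraries. In females it ran from 15.5 to 64.2 CPM in S64F/+ against 17.1 to 35 CPM in WT libraries. What mast cells and enterochromaffin cells contribute to the Tph1 result was not tested.

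Tph2, the tryptophan hydroxylase known from serotonergic neurons, did not change past the threshold in either sex (chr10:115078641-115185022, minus strand). It stood at 1.9, 1.08, 2.12 and 1.1 CPM in male S64F/+ libraries and at 2.49, 2.47, 2.23 and 2.47 CPM in male WT libraries. The male groups did not overlap, a separation in this direction found in 17.3% of all genes tested. Yet the difference of -0.63 ± 0.35 SE on the log2 scale was not called (edgeR adjusted p = 0.203). Tph2 stood at 3.01, 1.37, 1.12, 1.67 and 1.47 CPM in female S64F/+ libraries and in female WT libraries at 0.999, 0.929, 0.697, 1.66 and 2.27 CPM, which overlapped (log2 fold change 0.41 ± 0.32 SE, edgeR adjusted p = 0.393).

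Per unit of transcript length, the more abundant hydroxylase differed between groups. Tph1 made up 57.5, 66.7, 63.9 and 50.8% of the summed Tph1 and Tph2 FPKM in the male S64F/+ libraries, against 0, 1.68, 0 and 0% in the male WT libraries. In female S64F/+ libraries the share was 7.16, 17.9, 13, 7.48 and 17.2%, against 3.49, 0.397, 9.37, 3.46 and 2.3% in female WT libraries. Tph1 was thus the larger part in every male S64F/+ library and the smaller part in each of the other 14, and the 2 female ranges overlap. The authors' gene lengths, 11627 bases for Tph1 and 2919 for Tph2, enter these shares directly.

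**Figure D3:**
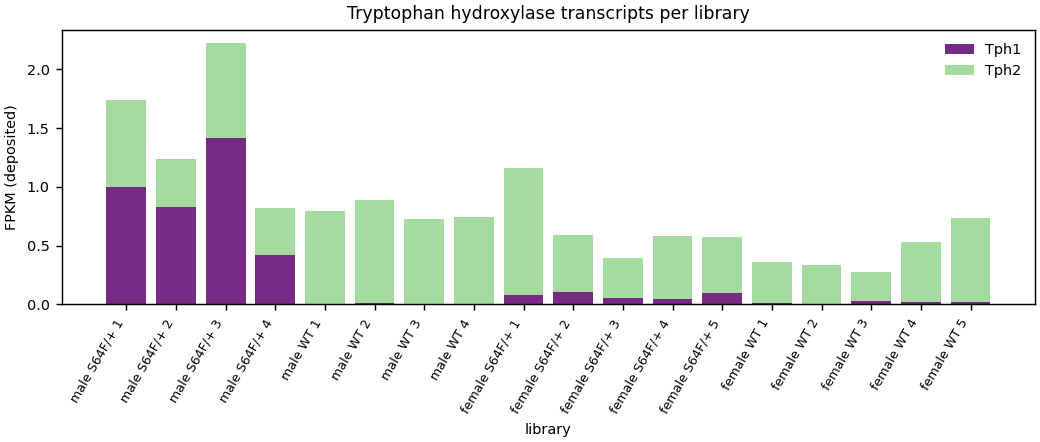
Tph1 and Tph2 in each library as stacked bars (y axis, deposited FPKM). Tph1 exceeds Tph2 in the 4 male S64F/+ libraries and in no other.

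Ddc, which makes serotonin from 5-hydroxytryptophan and dopamine from L-DOPA, fell in both sexes (chr11:11814101-11898144, minus strand). Male S64F/+ libraries held 236, 233, 254 and 214 CPM against 467, 353, 407 and 473 CPM in male WT libraries. In females the S64F/+ libraries held 259, 270, 195, 245 and 232 CPM against 391, 298, 414, 403 and 387 CPM in female WT libraries. All S64F/+ libraries lay below all WT libraries of their sex, as for 17.3% of all genes tested in males and 6.37% in females. The log2 fold change was -0.86 ± 0.12 SE in males and -0.66 ± 0.11 in females (edgeR adjusted p = 3.99e-05 and 0.000236), and the sexes did not differ past the threshold in this effect (-0.2 ± 0.16, edgeR adjusted p = 0.456). A gene on the opposite strand, 1700042O10Rik, overlaps Ddc, and with the counting's strand setting not given in the sources used here its reads cannot be told apart from those of Ddc. Beta cell markers moved with Ddc: 8 of 8 fell in males, with summed CPM of 124000 to 138000 in S64F/+ against 209000 to 287000 in WT libraries. In females 6 of the 8 fell, all but Ins1 and Ins2, and the sums overlapped, at 130000 to 243000 in S64F/+ and 165000 to 305000 in WT libraries. Their part in the Ddc result was not tested.

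Around these enzymes, 18 of 19 listed genes of serotonin synthesis, storage and breakdown were tested. In males 1 was higher, Tph1, and 4 were lower, a called share of 27.8% that is close to the 27.6% over all genes tested, with a list median of -0.22 against -0.03 over all genes. Ddc was joined by Gch1, the first enzyme of the synthesis of tetrahydrobiopterin, which the hydroxylases need (101 ± 4.02 CPM in S64F/+ and 164 ± 17.2 CPM in WT islets, log2 fold change -0.7 ± 0.09 SE, edgeR adjusted p = 3.11e-05), by Pts, the next enzyme of that synthesis (-0.39 ± 0.09, 0.00281), and by Qdpr, which recycles the cofactor (-0.45 ± 0.12, 0.00725). Under scaling by plain library totals, which gave 1 higher and 2 lower, the calls of Pts and Qdpr in males were lost (edgeR adjusted p = 0.295 and 0.0537).

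In females 3 genes of this list were higher and 3 lower (33.3% called, against 21.2% of all genes), with a median of 0.11 against 0.02 over all genes. The lower ones were Ddc, Gch1 (117 ± 12.7 CPM in S64F/+ and 167 ± 15.3 CPM in WT islets, log2 fold change -0.51 ± 0.08 SE, edgeR adjusted p = 0.000265) and Pts (-0.24 ± 0.08, 0.0408). The call of Pts in females was lost with plain library totals (edgeR adjusted p = 0.0955) and in 7 of 18 fits that each left out 1 library, with the highest value, 0.109, without female WT replicate 2. Beside Tph1, the higher ones were Pcbd1, which regenerates tetrahydrobiopterin (0.47 ± 0.12, edgeR adjusted p = 0.00956), and Slc3a2, the heavy chain of the large neutral amino acid transporter (0.32 ± 0.08, 0.00922). Qdpr and Pcbd1 also differed between the sexes in their genotype effect (-0.62 ± 0.16 and -0.66 ± 0.18, male minus female, edgeR adjusted p = 0.0345 and 0.0449), but with plain library totals neither did (0.0532 and 0.068). The vesicular transporters Slc18a1 and Slc18a2, the serotonin transporter Slc6a4 and the monoamine oxidases Maoa and Maob were called in neither sex, and the nearest to the threshold were Maob and Slc18a1 in males (-0.27 ± 0.1 and -0.53 ± 0.2, edgeR adjusted p = 0.0523 and 0.0558).

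**Figure D4:**
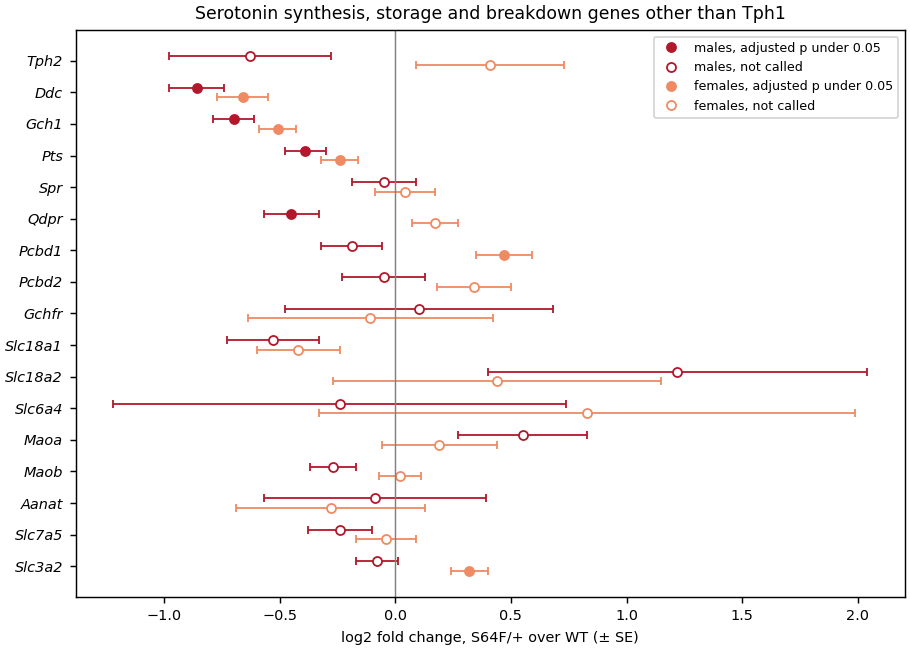
Log2 fold changes of S64F/+ over WT (x axis, bars ± SE) for 17 tested genes of serotonin synthesis, storage and breakdown, without Tph1, in males and females. Ddc, Gch1 and Pts are called lower in both sexes, Qdpr in males, and Pcbd1 and Slc3a2 are called higher in females.

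Fev, the ETS transcription factor (also called Pet-1) that marks serotonergic neurons and is also found in mouse beta cells, was higher in female S64F/+ islets (chr1:74881509-74885419, minus strand). Male S64F/+ libraries held 12.6, 13.7, 17.9 and 12.8 CPM, and male WT libraries 10.8, 12.3, 16.5 and 12.2 CPM. Female S64F/+ libraries held 19.9, 16.8, 15.7, 24.8 and 29.8 CPM, against 10.8, 15.7, 10.5, 15.2 and 16.3 CPM in female WT libraries. The female groups overlap at their edges, where 1 S64F/+ library lies below the highest WT library, and the male groups overlap widely. The log2 fold change was 0.14 ± 0.2 SE in males (edgeR adjusted p = 0.67) and 0.65 ± 0.18 in females (0.0151), and the difference between these effects was not called (-0.51 ± 0.27, male minus female, 0.252). Markers of other endocrine cells moved with Fev in females: 6 of 6 alpha cell markers rose, with sums of 59800 to 82800 CPM in S64F/+ against 34100 to 42400 CPM in WT libraries. The 4 delta cell markers tested, of 5, rose as well, with sums of 6050 to 8190 CPM in female S64F/+ against 2720 to 4200 CPM in female WT libraries. In males, where Fev was not called, 1 of 6 alpha cell markers and 3 of the 4 delta cell markers tested rose. The part of these markers in the Fev result was not tested.

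Of 9 listed transcription factors of serotonergic neurons, 7 were tested, and 4 fell in both sexes: Lmx1b, Nkx2-2, Foxa2 and Insm1, of which the last 3 are also factors of endocrine cells. Lmx1b, a LIM homeodomain factor, averaged 9.25 ± 2.79 CPM in male S64F/+ and 15.8 ± 1.61 CPM in male WT islets (log2 fold change -0.77 ± 0.17 SE, edgeR adjusted p = 0.00177). In females it averaged 8.99 ± 1.25 CPM in S64F/+ and 17.1 ± 1.06 CPM in WT islets (-0.92 ± 0.15, 0.000208). Nkx2-2 fell by 0.64 in males and by 0.46 in females on the log2 scale, Insm1 by 0.6 and 0.64, and Foxa2 by 0.51 and 0.26. The Foxa2 call in females was lost in 7 of 18 fits without 1 library (highest edgeR adjusted p 0.12, without female S64F/+ replicate 2). The list's 1 higher gene in females was Fev, and in males it was Gata2, a zinc finger factor also on the mast cell list and named here after its values were seen (0.72 ± 0.24, 0.0319). The Gata2 call was lost in 5 of 18 fits without 1 library (highest edgeR adjusted p 0.113, without male WT replicate 4). The called share was 71.4% of 7 genes in each sex, against 27.6% of all genes in males and 21.2% in females. The list medians were -0.51 in males and -0.26 in females, against -0.03 and 0.02 over all genes. The beta cell markers given beside Ddc fell with these factors, 8 of 8 in males (median -0.89) and 6 of 8 in females (median -0.51), and their part was not tested.

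The serotonin receptors Htr2b and Htr1d were close to undetected. Htr2b, a Gq-coupled receptor, gave 4, 3, 3 and 17 counts in male S64F/+ libraries and 0, 2, 2 and 0 counts in male WT libraries (chr1:86099026-86111970, minus strand). Female S64F/+ libraries gave 0, 0, 0, 2 and 0 counts and female WT libraries 5, 8, 0, 3 and 1 counts. Library 4 holds 17 of the 27 counts of male S64F/+ islets, so their mean of 0.156 ± 0.173 CPM rests mainly on it, and the male WT mean was 0.0286 ± 0.0339 CPM. With the count filter lifted, Htr2b was called in neither genotype comparison (2.15 ± 1.04 SE in males and -2.22 ± 1.07 in females on the log2 scale, edgeR adjusted p = 0.216 and 0.241). The gene overlaps Psmd1 on the opposite strand, whose reads cannot be told apart from it without the strand setting.

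Htr1d, a Gi-coupled receptor, gave 14, 3, 3 and 5 counts in male S64F/+ libraries and 4, 0, 6 and 2 counts in male WT libraries (chr4:136423524-136444398, plus strand). It gave 5, 0, 8, 4 and 1 counts in female S64F/+ and 6, 8, 5, 0 and 9 counts in female WT libraries. The groups overlap, with means between 0.107 and 0.124 CPM, and a difference was not detectable at this depth. Of 14 serotonin receptor genes only 4 passed the filter. In males 1 of them was called (25%, against 27.6% of all genes), Htr2a, another Gq-coupled receptor. In females 0 were called, against 21.2% of all genes. Htr2a reached the filter's level in all 4 male S64F/+ libraries and in 0, 1 and 1 libraries of the male WT, female S64F/+ and female WT groups, so it was tested because it was high in male S64F/+ islets, and its values are a description. It averaged 0.782 ± 0.243 CPM in male S64F/+ and 0.0714 ± 0.0507 CPM in male WT islets (log2 fold change 3.31 ± 0.56 SE, edgeR adjusted p = 0.000266), against 0.153 ± 0.0838 CPM in female S64F/+ and 0.139 ± 0.0834 CPM in female WT islets (0.26 ± 0.48, 0.751). Its genotype effect differed between the sexes (3.05 ± 0.75, edgeR adjusted p = 0.0316), a call lost with the replicate number as a block (0.0537) and in 8 of 18 fits without 1 library (highest 0.069, without male S64F/+ replicate 3), and DESeq2 gave it no adjusted p. Stellate cell and fibroblast markers moved with it: 8 of 8 rose in males, with sums of 1370 to 2180 CPM in S64F/+ against 149 to 406 CPM in WT libraries, and 1 of 8 rose in females. Their part in the Htr2a result was not tested.

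Prlr, the cytokine receptor for prolactin and placental lactogens, was lower in female S64F/+ than in female WT islets, at the edge of the threshold (chr15:10177238-10349180, plus strand). RefSeq gives it 3 starts with a window, and the 250 bases before the middle one are shown because this window holds the STAT5 motif, in capitals, 110 bases before the start (RefSeq, GRCm38.p6, 5′ to 3′).

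Prlr middle start, chr15:10223656-10223905, plus strand: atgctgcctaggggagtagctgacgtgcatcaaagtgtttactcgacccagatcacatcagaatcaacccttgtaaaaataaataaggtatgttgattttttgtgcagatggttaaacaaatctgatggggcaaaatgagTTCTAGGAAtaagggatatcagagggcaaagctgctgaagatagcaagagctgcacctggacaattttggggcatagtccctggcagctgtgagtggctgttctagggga

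Male S64F/+ libraries held 551, 472, 454 and 461 CPM of Prlr, against 706, 542, 485 and 678 CPM in male WT libraries. Female S64F/+ libraries held 402, 260, 278, 285 and 302 CPM, against 437, 302, 373, 410 and 529 CPM in female WT libraries. The groups overlap in both sexes. The log2 fold change was -0.31 ± 0.16 SE in males (edgeR adjusted p = 0.162) and -0.43 ± 0.14 in females (0.0425), and the effects did not differ past the threshold (0.11 ± 0.22, 0.794). The female call was lost in 9 of 18 fits without 1 library: male S64F/+ 2 or 4, female S64F/+ 2, 3, 4 or 5, or female WT 1, 4 or 5, with edgeR adjusted p between 0.0525 and 0.13. It was also lost without the count filter (0.0604) and in a fit of the female libraries alone (0.0783). Prlr overlaps Gm21973 on the same strand in the annotation, so its counts are uncertain.

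Prlr differed more clearly between the sexes. Every male S64F/+ library stood above every female S64F/+ library, as for 7.88% of all genes tested. The means were 485 ± 44.9 and 305 ± 55.9 CPM (SD, n = 4 and 5, log2 fold change 0.67 ± 0.15 SE, edgeR adjusted p = 0.00875). Male WT islets averaged 603 ± 106 CPM and female WT islets 410 ± 83.4 CPM, which was not called (0.0614), although DESeq2 called it (adjusted p = 0.011).

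Downstream of the receptor, all 19 listed genes of prolactin receptor signalling were tested, and 10.5% were called in males and 21.1% in females, against 27.6% and 21.2% of all genes. In males Socs1, a feedback inhibitor of JAK kinases, was higher (2.14 ± 0.31 CPM in S64F/+ and 0.911 ± 0.264 CPM in WT islets, log2 fold change 1.22 ± 0.26 SE, edgeR adjusted p = 0.00169), and Ptpn1, a tyrosine phosphatase, was lower (58.7 ± 1.4 and 72.3 ± 4.81 CPM, -0.3 ± 0.1, 0.0397). The Ptpn1 call in males was lost with plain library totals (0.691), which left Socs1 as the 1 call. In females 4 genes were lower: Prlr, Stat5a, the STAT factor (17.2 ± 1.23 CPM in S64F/+ and 22.3 ± 0.967 CPM in WT islets, -0.38 ± 0.08, edgeR adjusted p = 0.00182), Ptpn1 (57.4 ± 10 and 75.4 ± 2.26 CPM, -0.39 ± 0.09, 0.0061) and Socs7 (-0.31 ± 0.08, 0.0131). The list medians were -0.12 in males and -0.14 in females. Cish and Socs2, targets of STAT5 that prolactin raises in islets, were called in neither sex: Cish had log2 fold changes of 0.03 ± 0.59 in males and -1.3 ± 0.53 in females (edgeR adjusted p = 0.98 and 0.0982), and Socs2 of 0.06 ± 0.17 and -0.38 ± 0.15 (0.843 and 0.0734). Jak2 and Stat5b did not pass either (-0.03 ± 0.08 and 0 ± 0.07 in males, -0.14 ± 0.07 and -0.12 ± 0.06 in females, edgeR adjusted p between 0.18 and 0.997).

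The remaining 3 genes, followed as prolactin-response genes, moved in different directions. Gbp8, an interferon-inducible GTPase of the guanylate-binding protein family, was higher in female S64F/+ islets (chr5:105014150-105139540, minus strand). Male S64F/+ libraries held 1.91, 0.957, 1.5 and 1.86 CPM and male WT libraries 0.553, 1.27, 1.2 and 0.798 CPM, which overlap. Female S64F/+ libraries held 1.81, 1.28, 2.28, 1.63 and 1.43 CPM, all above the 0.621, 1.18, 1.07, 1.04 and 0.779 CPM of female WT libraries. Of all genes tested, 5.28% were separated in this direction in females. The log2 fold change was 0.68 ± 0.3 SE in males (edgeR adjusted p = 0.0959) and 0.85 ± 0.26 in females (0.0269), and the effects did not differ past the threshold (-0.17 ± 0.39, 0.833). With replicate numbers as a block the female call was lost (0.0662), as it was without female S64F/+ 3 (0.0737), female WT 1 (0.0778) or female WT 5 (0.0633). Gbp8 overlaps Gbp9 and Gbp4 on the same strand in the annotation, so the counts of Gbp8, Gbp9 and Gbp4 are uncertain.

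Of 8 guanylate-binding proteins tested among 11 listed, 5 rose in males (62.5%, against 27.6% of all genes called) and Gbp8 was the 1 called in females (12.5%, against 21.2%), with list medians of 0.94 and 0.01. In males Gbp9 averaged 11.4 ± 1.67 CPM in S64F/+ and 4.16 ± 1.09 CPM in WT islets (log2 fold change 1.44 ± 0.21 SE, edgeR adjusted p = 6.9e-05), and Gbp4 8.92 ± 2.14 and 2.74 ± 0.79 CPM (1.69 ± 0.28, 0.000214). Gbp5 and Gbp2 rose by 1.25 ± 0.3 and 1.11 ± 0.31 (0.00458 and 0.0125). In females Gbp9 averaged 6.02 ± 1.04 CPM in S64F/+ and 6.37 ± 1.51 CPM in WT islets, and the male effect exceeded the female one for Gbp9 (1.53 ± 0.28, edgeR adjusted p = 0.00942) and for Gbp4 (1.39 ± 0.37, 0.0419). The Gbp4 difference was lost in 11 of 18 fits without 1 library (highest 0.0985, without male WT replicate 4). Macrophage markers moved with these genes in males, where 5 of 8 rose and C1qa fell, with sums of 116 to 149 CPM in S64F/+ against 87.7 to 128 CPM in WT libraries. In females 4 of the 8 macrophage markers rose (list median 0.85), and Gbp8 was the 1 guanylate-binding gene called. The part of the macrophage markers was not tested.

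Ivd, the isovaleryl-CoA dehydrogenase of leucine breakdown in mitochondria, was lower in male S64F/+ islets (chr2:118861954-118882909, plus strand). Its promoter site with the STAT5 motif in capitals, and that of Wipi1, are shown with 10 bases on each side (RefSeq, GRCm38.p6, 5′ to 3′ on the gene's strand). They are the other 2 sites of this motif among the 10 genes. The RefSeq start used for Wipi1 and the site before it both lie inside the GENCODE bounds of the gene. Of the 250 bases before the start, 43 in Wipi1 and 40 in Ivd are in GENCODE exons of the same gene.

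Ivd, chr2:118861896-118861924, plus strand, 88 bases before the start: ttcggctggcTTCCGAGAAcgattggcta

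Wipi1, chr11:109611529-109611557, minus strand, 158 bases before the start: acccagccgaTTCTCTGAAggaggggcgg

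Male S64F/+ libraries held 97.1, 85.4, 117 and 123 CPM of Ivd, all below the 170, 148, 136 and 153 CPM of male WT libraries. Of all genes tested, 17.3% were separated in this direction in males. Ivd in females stood at 92.5, 132, 110, 131 and 139 CPM in S64F/+ libraries and at 159, 144, 115, 144 and 150 CPM in WT libraries, which overlap. The log2 fold change was -0.52 ± 0.13 SE in males (edgeR adjusted p = 0.00709) and -0.24 ± 0.12 in females (0.17), and the effects did not differ past the threshold (-0.28 ± 0.18, 0.346). With plain library totals the median over all genes moved to 0.19 in males, and Ivd stood at -0.3 (edgeR adjusted p = 0.105), which is -0.49 relative to that median.

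All 25 listed genes of branched-chain amino acid breakdown were tested. In males 9 were lower, Ivd among them, and 2 higher (44% called, against 27.6% of all genes), with a list median of -0.2. Bcat1, 1 of the 2 higher, reached the filter's level in 3 male S64F/+, 0 male WT, 1 female S64F/+ and 0 female WT libraries. It was thus tested because it was high in S64F/+ islets, and its call is a description. Acat1, a thiolase, Mccc2, a subunit of the carboxylase that follows Ivd, and Acadsb, an acyl-CoA dehydrogenase, were among the lower (-0.41 ± 0.09, -0.4 ± 0.09 and -0.32 ± 0.07, edgeR adjusted p = 0.0022, 0.00264 and 0.00308). This direction depended on the scaling: with plain library totals 1 was lower and 6 higher, and the calls of Acat1, Mccc2 and Acadsb in males were lost (0.167, 0.112 and 0.469). Bckdhb, a subunit of the branched-chain ketoacid dehydrogenase, went the other way, with 33.7 ± 6.12 CPM in male S64F/+ against 18.5 ± 1.68 CPM in male WT islets (0.87 ± 0.17, 0.000811) and 49.9 ± 11.5 CPM in female S64F/+ against 20.2 ± 2.81 CPM in female WT islets (1.31 ± 0.15, 6.47e-06). In females 12% of the list was called, against 21.2% of all genes, and 2 of its genes were lower, Mccc1 and Acadsb (-0.29 ± 0.1 and -0.21 ± 0.07, edgeR adjusted p = 0.0399 and 0.0314), and both calls were lost with plain library totals (0.0781 and 0.0648), which gave 2 higher and 2 lower.

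Wipi1, which binds phosphoinositides on forming autophagosomes, was lower in female S64F/+ islets (chr11:109573331-109611967, minus strand). Male S64F/+ libraries held 53.7, 73.1, 62.9 and 65.2 CPM and male WT libraries 60.6, 61.4, 53.7 and 61.6 CPM, which overlap. In the female S64F/+ libraries it was at 48.1, 46.1, 29.8, 47.3 and 44 CPM, all below the 52.8, 53.7, 68.5, 50.4 and 60.9 CPM of female WT libraries. Of all genes tested, 6.37% were separated in this direction in females. The log2 fold change was 0.1 ± 0.13 SE in males (edgeR adjusted p = 0.607) and -0.41 ± 0.12 in females (0.0181). The effects differed by 0.51 ± 0.18, which was not called (0.0896), except with plain library totals (0.0461). The female call was lost with replicate numbers as a block (0.0558), in a fit of the female libraries alone (0.0536) and without female WT replicate 3 (0.0538). Between S64F/+ islets, males held more Wipi1 than females (63.7 ± 7.97 and 43.1 ± 7.57 CPM, SD, n = 4 and 5, log2 fold change 0.56 ± 0.12 SE, edgeR adjusted p = 0.00709).

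Of 25 listed genes of autophagosome formation, all tested, 3 were lower in males, and in females 1 was lower, Wipi1, and 3 were higher. The called shares, 12% in males and 16% in females, lie below the 27.6% and 21.2% of all genes. In males they were Wdr45b, a relative of Wipi1 (-0.43 ± 0.07, edgeR adjusted p = 0.000209), and the conjugation proteins Atg5 and Atg10 (-0.34 ± 0.09 and -0.36 ± 0.13, 0.00851 and 0.0404). With plain library totals the male count became 6 higher and 1 lower, and the calls of Atg5 and Atg10 were lost (0.398 and 0.421). The 3 higher in females were the kinase Ulk2 and the autophagosome proteins Map1lc3a and Map1lc3b (0.33 ± 0.06, 0.43 ± 0.14 and 0.3 ± 0.08, edgeR adjusted p = 0.000749, 0.0321 and 0.0111). The Map1lc3a call was lost in 6 of 18 fits without 1 library (highest edgeR adjusted p 0.102, without female S64F/+ replicate 3). The list medians were -0.01 in males and -0.04 in females.

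**Figure D5:**
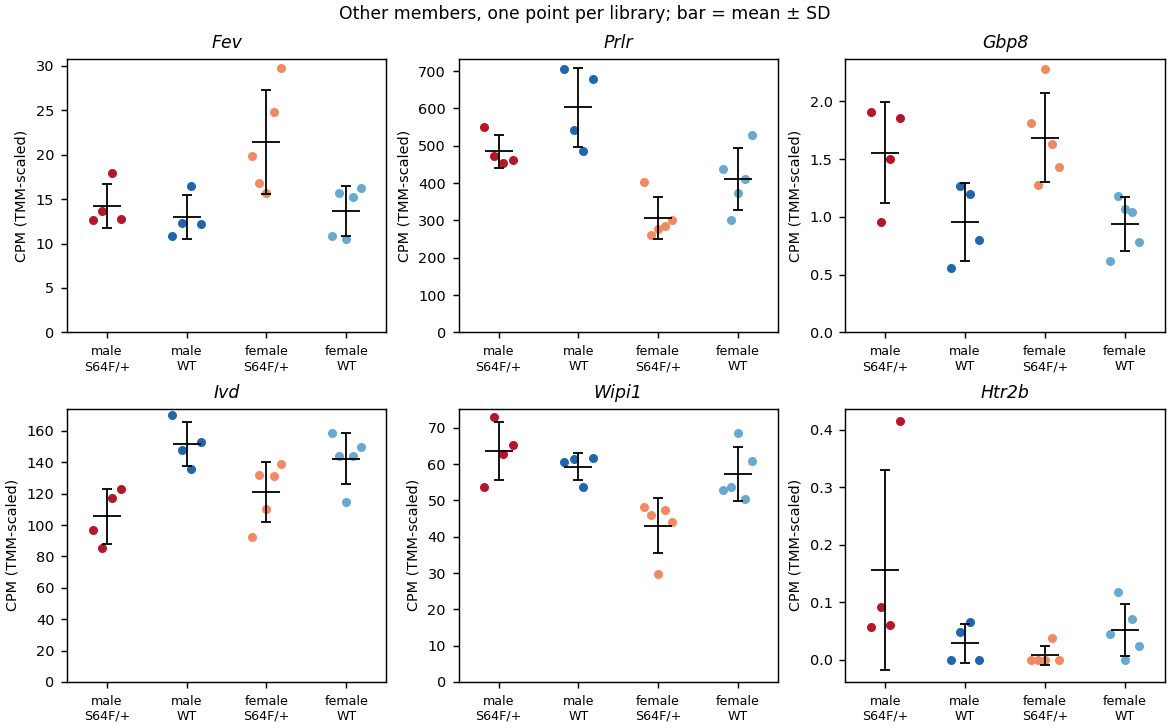
Fev, Prlr, Gbp8, Ivd, Wipi1 and Htr2b in each library (y axis, TMM-scaled CPM), by group, with the mean and SD as bars. Ivd is lower in all male S64F/+ than in all male WT libraries, Wipi1 is lower and Gbp8 higher in all female S64F/+ than in all female WT libraries, and 1 male S64F/+ library carries most of the Htr2b.

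Genes reported to be higher in islets during pregnancy moved in both directions. Of 18 listed, which include 9 of the 10 genes followed here (all but Ddc), 16 were tested. In males Tph1 was higher and Ivd lower, and in females Tph1, Fev and Gbp8 were higher and Prlr and Wipi1 lower, which is 12.5% and 31.2% of those tested, against 27.6% and 21.2% of all genes. The medians were 0.1 in males and -0.12 in females. With plain library totals 2 were higher in males, Tph1 and Gbp8, and Ivd was no longer called.

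Between the S64F/+ groups, 4 of the 8 tested genes were called, where 16.1% of all genes were (8% higher and 8.12% lower in males): Tph1, Prlr and Wipi1 were higher in males, and Fev was lower in males (14.2 ± 2.51 CPM in male and 21.4 ± 5.87 CPM in female S64F/+ islets, log2 fold change -0.59 ± 0.19 SE, edgeR adjusted p = 0.0436). The Fev call between S64F/+ groups was lost with plain library totals (0.134) and relative log expression scaling (0.0518), without the count filter (0.0841) and in 7 of 18 fits without 1 library: male S64F/+ 1, 2 or 4, male WT 2 or 4, or female S64F/+ 4 or 5 (0.0507 to 0.117). Between the WT groups 0 of the 8 were called with edgeR, where 2.36% of all genes were, and Tph2 and Prlr had an unadjusted p under 0.05 (0.0166 and 0.00175). DESeq2 called 1 of them, Prlr. Htr2b, with the filter lifted, was called higher in male than in female S64F/+ islets (3.64 ± 1.06, edgeR adjusted p = 0.0392), on 27 counts against 2.

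Ordered by mean FPKM, which divides by the authors' gene length, Ddc was the most abundant of the 10 in all groups and Prlr or Ivd came next. In male S64F/+ islets the means were 21.8 for Ddc, 17.8 for Prlr, 13.8 for Ivd, 10.3 for Wipi1, 5.48 for Fev, 0.916 for Tph1, 0.59 for Tph2, 0.184 for Gbp8, 0.0654 for Htr2b and 0.0166 FPKM for Htr1d. In male WT islets they were 33.7 for Ddc, 18.9 for Prlr, 17 for Ivd, 8.23 for Wipi1, 4.28 for Fev, 0.786 for Tph2, 0.0982 for Gbp8, 0.0146 for Htr1d, 0.0108 for Htr2b and 0.00372 FPKM for Tph1. In male S64F/+ islets Tph1 and Tph2 lay within their spread (0.916 ± 0.416 and 0.59 ± 0.211 FPKM, SD), as did Htr2b and Htr1d (0.0654 ± 0.0708 and 0.0166 ± 0.00864 FPKM). In male WT islets Prlr and Ivd did so (18.9 ± 2.77 and 17 ± 1.66 FPKM). The 3 lowest there, Htr1d, Htr2b and Tph1 (0.0146 ± 0.0125, 0.0108 ± 0.0127 and 0.00372 ± 0.00744 FPKM), rest on 12, 4 and 7 counts over the group and have no order beyond their spread. Female S64F/+ islets ran from Ddc at 19.8 to Htr2b at 0.00277 FPKM, with Tph1 at 0.0767, and female WT islets from Ddc at 31.4 to Htr1d at 0.0149 FPKM, with Tph1 at 0.015.

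Among 14931 genes ranked, the 5 whose log2 CPM profile over the 18 libraries lay nearest to that of Tph1 were Ear2, Rnase2a, Serpina3g, Mgl2 and Wdr72. Their root mean square distance from Tph1 was 0.985, 1.15, 1.17, 1.18 and 1.21, where the SD of Tph1 itself was 2.72. The measure describes these libraries, which all the genes share, and has no test. Ear2 averaged 9.18 ± 1.35 CPM in male S64F/+ and 0.024 ± 0.0481 CPM in male WT islets, and 1.72 ± 1.16 CPM in female S64F/+ and 0.0892 ± 0.126 CPM in female WT islets. Ear2 and Rnase2a have near-identical copies in the mouse, so their counts are uncertain. Ear2 was also the 1 gene tested of the eosinophil markers, of which Epx was at 0 in all male WT, female S64F/+ and female WT libraries.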

How the data were processed

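Bulk RNA-seq of whole islets gave 18 libraries, read paired-end per the labels' protocols, and the sample titles set groups and replicate numbers. The authors deposited raw counts per gene on GRCm38, and the submitters' processing notes list STAR, featureCounts and DESeq2 among other tools. Not given in the sources used here were the annotation, the strand setting and how multimapping reads were treated. FPKM values, deposited by the authors as well, equal the count divided by column total and gene length for all 33562 genes with a count (within 0.001 base), and were used only for levels between genes. Spike-ins (99 features, 0 counts) were left out.

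Counts were fitted with edgeR 4.0.16 (limma 3.58.1, R 4.3.3): filterByExpr (minimum count 10, total 15) left 18364 genes, libraries were scaled by TMM, and all libraries entered a robust quasi-likelihood model with 1 coefficient for each group. P-values were two-sided and Benjamini-Hochberg adjusted within each contrast over all genes tested, with a threshold of 0.05. The SE is the size of the log2 fold change divided by the square root of F. The scripts were tested on simulated data. Limits from 0 counts use 3 counts and cover counting error only. Alternatives were plain library totals, relative log expression, no filter, DESeq2 1.42.0, a replicate block, 1 sex alone and each library left out.

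The 10 genes and the gene lists were chosen with earlier results of these data known. The text names all 10, Mafa, the 5 hormone genes, at most 4 called genes per list and contrast in order of p, and the 5 genes nearest Tph1, without provisional symbols and pseudogenes. Uncalled list genes and cell markers were named for their roles after their values were seen. Gata2 and Bcat1 were named beyond the limit per list, also after their values were seen. Deviations from group means correlated between same-numbered female S64F/+ and WT libraries at 0.11, 0.299, 0.11, 0.418 and 0.265. The labels do not say that same numbers are pairs, and the main fit did not pair them. Replicate numbers entered only the alternative fit with a replicate block. For only 1 of the 5 female numbers was the same-numbered library also the best match. The male values were 0.0131, -0.244, -0.249 and 0.189, with a same-numbered best match for number 4 only. No 2 replicates differed by less than sampling noise (chi-square per degree of freedom at least 19.9). Coordinates are from GENCODE M21, and promoter sequences and starts from RefSeq GRCm38.p6.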

Additional observations from a re-analysis of the deposited data

Results flagged for a closer look

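Of the 40 groups of libraries formed by the 10 genes, 7 held a library that stood apart from the rest of its group, measured by its gap to the nearest other library over the group's range. For continuous values the limit used is passed by chance in about 1 group in 20. That rate does not hold where all libraries but 1 are at 0, as for Tph1 in male WT and Htr2b in female S64F/+ islets. Male WT replicate 2, at 0.168 CPM, was the 1 male WT library with Tph1 reads. Tph2 was lowest in male WT replicate 3 (2.23 CPM), Ddc in female WT replicate 2 (298 CPM), and Wipi1 in male WT replicate 3 (53.7 CPM) and in female S64F/+ replicate 3 (29.8 CPM). Htr2b was highest in male S64F/+ replicate 4 (0.415 CPM) and in female S64F/+ replicate 4 (0.0384 CPM, from 2 counts).

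The genotype effect differed between males and females past the threshold for Tph1 (4.88, male minus female on the log2 scale), and among the listed pathway genes for Htr2a (3.05), Gbp9 (1.53), Gbp4 (1.39), Ptpn2 (-0.48), Qdpr (-0.62) and Pcbd1 (-0.66). Ptpn2, a phosphatase that acts on JAK and STAT proteins, was called in neither sex alone (-0.27 ± 0.1 SE in males and 0.22 ± 0.09 in females, edgeR adjusted p = 0.0592 and 0.0932). The Ptpn2 difference (edgeR adjusted p = 0.0491) was lost in 15 of 18 fits without 1 library, and the Qdpr and Pcbd1 differences in 10 and 14.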

How the results depend on the processing

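With each of the 18 libraries left out in turn, called genes among the 8 tested numbered 3 to 4 in males (3 with all libraries), 4 to 6 in females (6), 1 in each fit for the sex difference in the genotype effect (1), 3 to 4 between the S64F/+ groups (4) and 0 to 1 between the WT groups (0). The replicate block, which rests on numbers that the labels do not call pairs, left 4 called in females and 3 in males. Plain library totals gave 2 calls for the sex difference in the genotype effect, Tph1 and Wipi1, and DESeq2 gave 1 between the WT groups.

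Signs turned only for uncalled values. With plain library totals, which moved the median of all genes to 0.25 for the sex difference and 0.18 between the S64F/+ groups, these were Tph2 between the S64F/+ groups (0.01), Ddc for the sex difference (0.04) and between the S64F/+ groups (0.14), Gbp8 likewise (0.07 and 0.08), Wipi1 between the WT groups (-0.01) and the Mafa sex difference (0.03). With 1 library left out, the values ranged from -0.34 to 0.14 for Tph2 and -0.1 to 0.01 for Ddc between the S64F/+ groups, and for Gbp8 from -0.34 to 0.01 for the sex difference, -0.22 to 0.06 between the S64F/+ groups and -0.11 to 0.23 between the WT groups. Of 1035 refitted fold changes of these genes and Mafa, 983 kept their direction and their side of the threshold, 29 lost the call, 6 gained it and 17 turned. The cause of these changes was not tested. Of 568 refitted counts of called list genes, 113 moved by more than 1.5 times. Depth limited Htr2b and Htr1d, with at most 17 counts in a library.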
